A study of Mus musculus with 3 samples.

Results

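The genes described are 36 genes of the pancreatic acinar cell, among 48795 gene identifiers counted in polysomal RNA of mouse bone marrow cells. The list was written as symbols and chosen by the known raw counts of such genes in these libraries, high in Mat KO and low in WT, and all 36 matched an identifier. They cover digestive proteases, lipases with their cofactor, amylases, a ribonuclease, lectins and granule proteins, and transcription factors of the acinar cell. Of these, 27 had at least 1 count in any library and 9 were at 0 in every library. The libraries came from bone marrow cells of wild-type (WT) mice, with 2 libraries, and of mice with the genotype label Mat KO, with 1 library. The labels give no age, strain or sex, and do not spell out the deleted allele. The series title names the imprinted Dlk1-Gtl2 locus. In all groups the cells were held with cycloheximide at 100 μg/ml for 10 minutes, which stalls translating ribosomes, and 10% to 50% sucrose gradients were used to part the polysomes. The Mat KO library has no replicate, and the labels do not say whether the WT libraries came from separate mice.

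Acinar cells make and store the digestive enzymes of the pancreas. Most of these are kept as inactive precursors (zymogens) in granules, are released into the gut, and become active there once trypsin has been formed from trypsinogen. A complex of the factors PTF1A and RBPJL, which binds an E-box together with a TGGGAA-type half-site, drives many of these genes in the acinar cell.

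The trypsinogen genes show how alike some of these genes are, which bears on how their reads could be counted. Trypsinogens lie in a cluster on chromosome 6, and the 6 listed ones have coding sequences of 741 bases each. The first 120 coding bases are given 5′ to 3′ from the GENCODE M21 transcripts (GRCm38), with capitals at each base that differs from Try4. Introns included, they span chr6:41302285-41303363 on the plus strand in Try4, chr6:41313429-41314695 on the minus strand in Try5, chr6:41521804-41522896 on the plus strand in Prss2, chr6:41458943-41461260 on the plus strand in Prss1, chr6:41376888-41377597 on the minus strand in Prss3 and chr6:41354192-41355531 on the plus strand in Try10.
Try4: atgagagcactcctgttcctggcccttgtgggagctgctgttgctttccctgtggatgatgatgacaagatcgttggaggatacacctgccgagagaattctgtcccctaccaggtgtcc
Try5: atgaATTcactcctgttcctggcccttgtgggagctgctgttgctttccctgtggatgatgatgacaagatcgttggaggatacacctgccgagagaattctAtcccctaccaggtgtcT
Prss2: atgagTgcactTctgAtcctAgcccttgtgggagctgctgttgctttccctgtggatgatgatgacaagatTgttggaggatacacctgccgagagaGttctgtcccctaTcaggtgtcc
Prss1: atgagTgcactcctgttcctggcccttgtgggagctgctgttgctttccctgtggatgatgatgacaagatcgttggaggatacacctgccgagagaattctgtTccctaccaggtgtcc
Prss3: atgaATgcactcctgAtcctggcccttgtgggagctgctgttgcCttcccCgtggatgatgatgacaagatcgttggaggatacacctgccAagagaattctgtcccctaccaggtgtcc
Try10: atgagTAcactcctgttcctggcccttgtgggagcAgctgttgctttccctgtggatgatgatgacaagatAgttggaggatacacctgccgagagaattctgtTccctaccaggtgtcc
Over all 741 coding bases, Try5 was 97.4% identical to Try4, Try10 95.4%, Prss1 93.4%, Prss3 92.4% and Prss2 91.6%. The longest run that all 6 share in these 120 bases is gtggatgatgatgacaagat, coding bases 52 to 71, which lies at the activation site cut by enteropeptidase. Over whole transcripts, 65.6% of the 50-base stretches of Try4 and 47.6% of those of Try5 also occur in a transcript of another gene, against 7.83% for Prss2. Ctrb1, Cela1, Pnlip, Cel, Cpa1, Cpb1, Clps and Ctrl share none. The sources used here do not give the read length, and reads aligned to several places were recorded apart from the gene counts. The division of counts among trypsinogens is therefore uncertain.

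In the Mat KO library 25 of the 36 genes, spread over 10 chromosomes, had counts, 924 in all. WT 1 held 8 counts of these genes and WT 2 held 16. Lars2, the annotated rRNA CT010467.1 and mt-Rnr1 and mt-Rnr2 of the mitochondrial ribosome took most gene-assigned counts of every library, so shares are given per 10000 counts outside these 4 features, which leaves 14430 counts in Mat KO, 20903 in WT 1 and 2301 in WT 2. On that scale the summed acinar share was 3.83 in WT 1 (95% Wilson interval 1.94 to 7.55), 69.5 in WT 2 (42.8 to 113) and 640.3 in Mat KO (602 to 681). The Mat KO library was highest and WT 1 lowest, and the 3 intervals do not overlap. Acinar genes made up 11.5% of the nuclear protein-coding counts without Lars2 in Mat KO, 1.31% in WT 2 and 0.0430% in WT 1. These intervals cover counting error only, and with 1 Mat KO library the spread between Mat KO mice is not known. In bulk RNA, more cells of a type and more RNA per cell cannot be told apart. The Mat KO share was 17.5-fold the mean of the WT shares, but the WT libraries lay far apart, so that the ratio was 9.21-fold against WT 2 alone and 167-fold against WT 1 alone. Per 10000 of all gene-assigned counts, a scale on which the 4 features weigh most in WT 2, the shares were 1.24 in WT 1, 0.668 in WT 2 and 73.4 in Mat KO, a ratio of 77.0-fold, with WT 2 below WT 1. In 24 of the 36 genes, 27 of which had a count in any library, the Mat KO share was above both WT libraries. Of the 4856 genes with a count anywhere, 11.1% were, but only a gene with a Mat KO count can be. The Mat KO library detected 642 genes, and 539 of them lay above both WT libraries. Of the 25 acinar genes with a count there, 24 did. Most genes detected in the Mat KO library thus lay above both WT libraries, acinar or not. A count of 0 in WT 2, taken to allow 3 counts, allows a share of 13.04 per 10000. Among the 24, Rnase1, Sycn, Zg16, Reg2, Gp2, Klk1, Pnliprp2, Amy2a5, Amy2b and Prss3 were at 0 there with lower Mat KO shares. They cannot be set apart from WT 2, and 6 of them had 3 counts or fewer in Mat KO. Cpa1, Cpb1 and Pnliprp1, also among the 24, had counts in WT 2 and ratio intervals that reach below 1. Since the 36 genes were selected on these values, the levels are a description and carry no test.

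**Figure D1:**
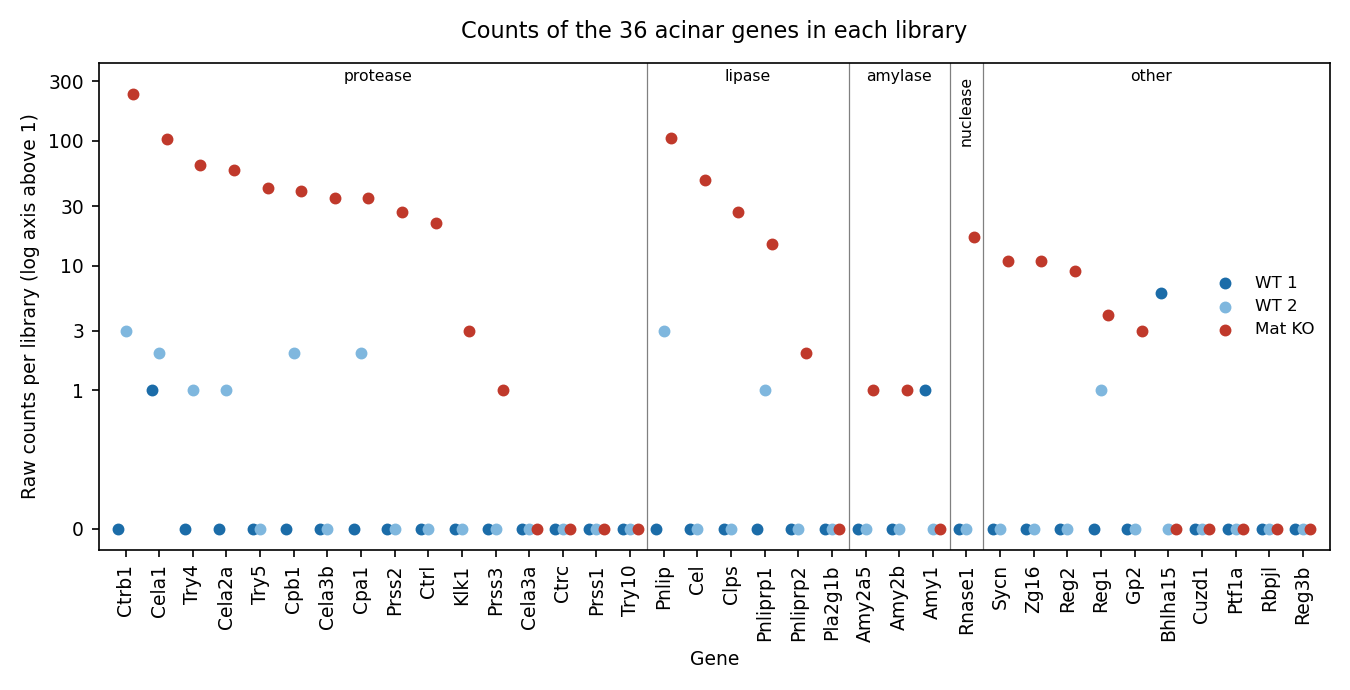
Raw counts (vertical axis, logarithmic above 1) of each of the 36 acinar genes (horizontal axis, by class) in the 2 WT libraries and the Mat KO library, 1 point per library. Mat KO counts reach 238 for Ctrb1, whereas no count of WT 2 exceeds 3 and that of WT 1 exceeds 1 in Bhlha15 alone.

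Proteases gave most of the acinar counts. The 16 protease genes had 668 counts in Mat KO, 11 in WT 2 and 1 in WT 1. The Mat KO figure is 72.3% of the acinar counts there (Wilson interval 69.3 to 75.1), and 12 of the 16 genes were detected there. Ctrb1 (ENSMUSG00000031957, GRCm38 chromosome 8 from 111686519 to 111691010), which encodes chymotrypsinogen B, had 238 counts in Mat KO, 3 in WT 2 and 0 in WT 1. Its share of 165 per 10000 in the Mat KO library was at least 115-fold that of WT 1, with 3 counts as the most that a 0 allows. Against WT 2 the ratio was 12.7 (counting interval 4.28 to 61.8). With Lars2 left out, Ctrb1 was the second most counted nuclear protein-coding gene of the Mat KO library after Anp32b. It carried 25.8% of the acinar counts. Ctrl, a chymotrypsin-like protease gene, had 0, 0 and 22 counts, in the order WT 1, WT 2 and Mat KO that is kept from here on. Ctrc, the gene of chymotrypsin C, which trims and degrades trypsinogen, had 0 counts in each library. Ctrc shares 21.4% of its exon bases with Cela2a or Casp9 on the same strand, and reads falling on several genes were recorded as ambiguous. Its 0 therefore need not mean that no read came from it. Cela2a, with 17.7% of its exon bases shared, had 58 counts in Mat KO. The part of this overlap in the 0 of Ctrc was not tested.

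Elastase genes were counted at 3 of 4 members. Cela1 (chromosome 15 from 100674421 to 100687921), a pancreatic elastase gene, had 1, 2 and 103 counts and was the sole acinar gene counted in all 3 libraries. Its Mat KO share of 71.4 per 10000 was 8.21-fold that of WT 2, with a counting interval of 2.22 to 68.7. Cela2a (chromosome 4 from 141814962 to 141826160) had 0, 1 and 58 counts, and Cela3b had 0, 0 and 35. Cela3a, the neighbour of Cela3b, had 0 counts throughout, and 34.2% of its 50-base stretches also occur in Cela3b. Together the elastase genes held 21.2% of the acinar counts of the Mat KO library.

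The 6 listed trypsinogen genes had 134 counts in Mat KO, 1 in WT 2 and 0 in WT 1. A trypsinogen gene outside the list, 2210010C04Rik, had 66, 2 and 0 in these libraries and is not in that sum. Try4, aligned above with its relatives, had 0, 1 and 64 counts, Try5 had 0, 0 and 42, Prss2 had 0, 0 and 27, and Prss3 had 0, 0 and 1. Prss1 and Try10 were at 0 in each library, with 54.9% and 40.8% of their 50-base stretches shared with other genes. The carboxypeptidases, which remove residues from the end of a peptide, were counted at both genes. Cpa1 had 0, 2 and 35 counts and Cpb1 had 0, 2 and 40. Their Mat KO shares were 2.79-fold (0.717 to 23.9) and 3.19-fold (0.827 to 27.2) those of WT 2, and both intervals reach below 1. Klk1, a kallikrein gene used in pancreas, kidney and salivary gland, had 0, 0 and 3 counts, and 24.0% of its 50-base stretches recur in other genes.

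Lipase genes and colipase had 0, 4 and 199 counts, or 21.5% of the acinar counts of the Mat KO library (19.0% to 24.3%), with 5 of 6 genes detected there. Pnlip (chromosome 19 from 58652498 to 58681788), the pancreatic triglyceride lipase, had 0, 3 and 106 counts, a Mat KO share 5.63-fold that of WT 2 (1.88 to 27.8) and at least 51.2-fold that of WT 1. Cel, the bile salt-dependent lipase, had 0, 0 and 49 counts, and Clps, the colipase that anchors Pnlip to fat droplets in the presence of bile salts, had 0, 0 and 27. The Pnlip relatives on the same stretch of chromosome 19 had 0, 1 and 15 counts for Pnliprp1 and 0, 0 and 2 for Pnliprp2. Per kb of exon this was 6.75 and 1.27 counts in the Mat KO library, against 48.3 for Pnlip. The Mat KO share of Pnliprp1 was 2.39-fold that of WT 2 (0.368 to 101), an interval that reaches below 1. Pla2g1b, a secreted phospholipase that is also kept as a zymogen, was at 0 in each library, which in the Mat KO library allows a share of up to 2.08 per 10000.

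Amylase genes, whose product digests starch, were nearly uncounted in the library that held the proteases and lipases. Amy2a5 had 0, 0 and 1 counts, Amy2b, annotated as an unprocessed pseudogene, had 0, 0 and 1, and Amy1 had 1, 0 and 0. The other annotated copies outside the list, Amy2a3, Amy2a4, Amy2a2 and Amy2a1, had 2, 1, 0 and 0 counts in Mat KO and none in WT. Of the 50-base stretches of Amy2a5, 53.5% also occur in other genes, mainly Amy2a2, Amy2a3 and Amy2a4. The Mat KO library recorded 53833 reads with several alignments, and how many of them came from amylase copies is not known. The low amylase count is therefore not a measured absence. Try4, with 65.6% of its stretches shared, had 64 counts there. These percentages run over all annotated transcripts of a gene, untranslated parts included, so they do not allow Try4 and Amy2a5 to be compared. The part of shared sequence in the low amylase count was not tested. Rnase1, the pancreatic ribonuclease gene, had 0, 0 and 17 counts and shares no 50-base stretch with another gene.

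**Figure D2:**
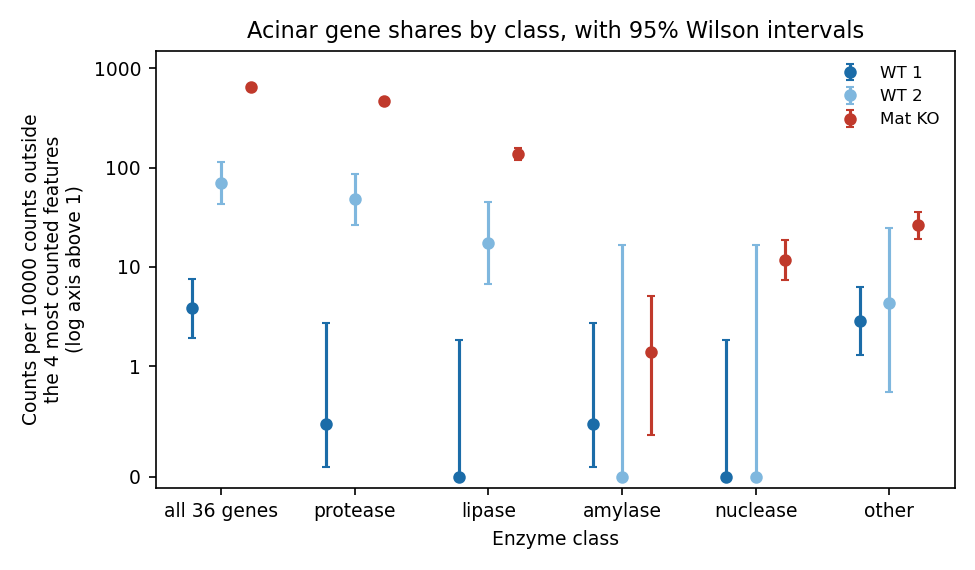
Summed share of each enzyme class (horizontal axis) per 10000 counts outside the 4 most counted features (vertical axis, logarithmic above 1), with 95% Wilson intervals for counting error, in each library. The Mat KO library stands above both WT libraries for proteases and lipases, whereas amylase intervals overlap in all libraries.

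Lectin and granule protein genes held few counts and transcription factor genes had none in the Mat KO library. The 7 lectin and granule genes had 0, 1 and 38 counts. Zg16, a lectin of the zymogen granule membrane, and Sycn, syncollin of the granule lumen, had 11 counts each in Mat KO and none in WT. Reg2 had 0, 0 and 9 counts and Gp2, the main membrane glycoprotein of zymogen granules, 0, 0 and 3, while Cuzd1 and Reg3b were at 0 in all libraries. Reg1, a secreted lectin, had 0, 1 and 4 counts and was the sole gene counted in the Mat KO library whose share there, 2.77 per 10000, lay below that of WT 2, at 4.35. Ptf1a and Rbpjl, the acinar factors named above, were at 0 in every library. Bhlha15 (Mist1), a factor of secretory cells that plasma cells also make, had 6 counts in WT 1 and 0 in both other libraries. WT 1 also held 156 counts of the B and plasma cell list, against 0 in WT 2 and 1 in Mat KO, and the part of these cells in its Bhlha15 counts was not tested.

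The sequence upstream of the 4 acinar genes with the most counts in the Mat KO library is shown because acinar promoters are known to carry sites of the factors named above. RefSeq (GRCm38.p6) gave a promoter entry for 31 of the 36 genes. The 250 bases before the start in these entries are printed 5′ to 3′ on the gene's strand, with capitals at each CACCTG (an E-box) or TGGGAA on either strand. The Pnlip window lies inside the GENCODE span of that gene, 58652498 to 58681788, which was used for its exon length. Ctrb1 spans chr8:111691011-111691260 on the minus strand, Pnlip chr19:58670115-58670364 on the plus strand, Cela1 chr15:100687921-100688170 on the minus strand and Try4 chr6:41302022-41302271 on the plus strand.
Ctrb1: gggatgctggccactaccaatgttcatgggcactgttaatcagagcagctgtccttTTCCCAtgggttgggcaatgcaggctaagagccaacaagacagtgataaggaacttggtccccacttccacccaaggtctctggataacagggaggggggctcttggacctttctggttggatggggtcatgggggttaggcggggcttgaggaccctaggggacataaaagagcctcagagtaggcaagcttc
Pnlip: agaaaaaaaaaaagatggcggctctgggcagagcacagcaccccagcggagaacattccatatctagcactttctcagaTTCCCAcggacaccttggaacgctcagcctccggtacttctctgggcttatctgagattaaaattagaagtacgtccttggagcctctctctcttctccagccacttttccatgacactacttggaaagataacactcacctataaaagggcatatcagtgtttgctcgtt
Cela1: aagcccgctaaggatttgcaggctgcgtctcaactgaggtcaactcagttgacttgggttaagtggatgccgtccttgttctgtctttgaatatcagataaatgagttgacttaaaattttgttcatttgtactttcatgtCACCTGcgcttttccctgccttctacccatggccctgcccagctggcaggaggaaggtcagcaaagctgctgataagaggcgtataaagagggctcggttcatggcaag
Try4: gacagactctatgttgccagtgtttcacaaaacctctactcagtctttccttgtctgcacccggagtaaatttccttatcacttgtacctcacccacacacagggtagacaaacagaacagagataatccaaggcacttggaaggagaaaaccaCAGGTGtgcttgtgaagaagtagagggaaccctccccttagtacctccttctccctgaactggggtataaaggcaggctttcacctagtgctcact
CACCTG occurred upstream of 18 of the 31 genes (58.1%), against 19.4% of all 27025 genes with an entry. TGGGAA occurred upstream of 19 (61.3%), against 24.1%, and both occurred upstream of 9 (29.0%), against 4.54%. Among the 22 genes with an entry and a count in the Mat KO library the shares were 59.1%, 63.6% and 27.3%. The looser E-box CANNTG, which includes CACCTG, occurred upstream of 80.6% of the 31 genes and 69.3% of all genes. Letter matches are a description of these windows and not a measurement of binding.

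In the Mat KO library, among genes with at least 4 counts, odd counts were frequent in acinar genes and rare in other genes. This difference is given as a description and does not hold below 4 counts. A count of 1 was the most common value of the other nuclear protein-coding genes, in 126 of the 548 detected there. Among other nuclear protein-coding genes with at least 4 counts there, 9.95% (40 of 402) had an odd count, and even counts of 6, 8 or 10 were common. Of the 19 acinar genes with at least 4 counts, 11 (57.9%) had an odd count, Cela1 with 103, Cel with 49 and Prss2 with 27 among them. With at least 10 counts the shares were 58.8% (10 of 17) and 9.29% (25 of 269). Since acinar genes are short, the others were also restricted to exon lengths no longer than that of the longest acinar gene with a count in the Mat KO library. Of those 76 genes with at least 4 counts, 15.8% had an odd count. Of the further acinar genes outside the list, 0 of 2 with at least 4 counts there, 2210010C04Rik with 66 and Dmbt1 with 6, had an odd count. In WT 1 the odd share among other nuclear protein-coding genes was 32.2% (580 of 1802), and in WT 2 it was 24.7% (18 of 73). Several tissue lists of WT 1 had higher odd shares, at 70.6% (12 of 17) for skeletal muscle, 6 of 10 for neutrophils, 3 of 5 for B and plasma cells, 55.6% (5 of 9) for stroma and bone, 47.4% (9 of 19) for hepatocytes and 42.9% (3 of 7) for erythroid cells. The list for entry into the endoplasmic reticulum and folding there had a lower one, at 8.33% (1 of 12). An odd share above the library's other genes was thus not limited to acinar genes. Reads carry no molecular identifiers, and the source of the even counts was not tested.

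**Figure D3:**
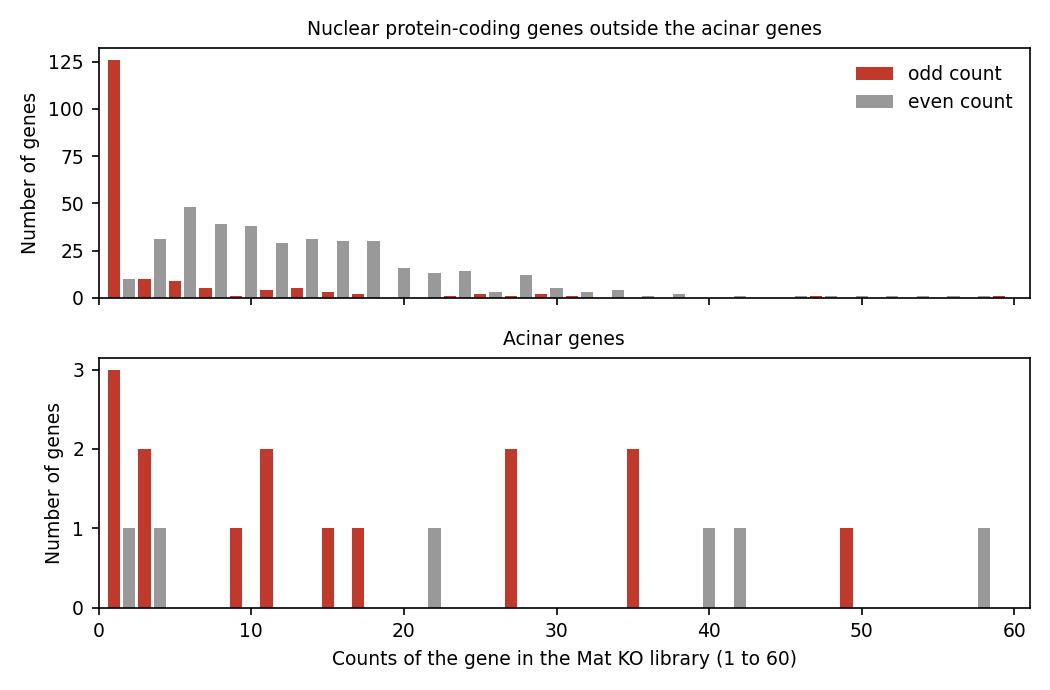
Number of genes (vertical axis) at each count from 1 to 60 in the Mat KO library (horizontal axis), for other nuclear protein-coding genes in the upper panel and acinar genes in the lower panel, odd counts in red and even counts in grey. Above 3 counts the upper panel is mostly grey, with 40 odd counts among 402 genes, whereas 11 of 19 acinar genes have odd counts (genes above 60 counts are not drawn).

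Acinar genes were also short for this library. Merged exons of the 24 protein-coding acinar genes with a count in the Mat KO library had a median length of 1207 bases, against 6426 bases for the 548 other nuclear protein-coding genes detected there. Levels between genes are therefore compared as counts per kb of exon in the Mat KO library. On this scale Ctrb1 stood at 271 counts per kb, Try4 at 79.9, Pnlip at 48.3, Try5 at 46.6, Cela1 at 44.7 and Clps at 44.2. The median was 19.4 over the 24 acinar genes and 1.17 over the other genes detected. Of the 10 genes with the most counts per kb 8 were listed acinar genes, and of the 20 highest 14 were. By raw counts it was 4 of 10 and 6 of 20. The listed genes were chosen as high in Mat KO, so these ranks and medians follow in part from the choice and carry no test. The others of the 10 by raw counts were Anp32b, Nrd1, Atp2b4, Hnrnpu, 2210010C04Rik and Synpo, of which 2210010C04Rik is a trypsinogen gene outside the list. With Lars2 left out, Anp32b, with 21, 0 and 656 counts, was the one nuclear protein-coding gene above Ctrb1 on both scales, at 382 counts per kb.

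**Figure D4:**
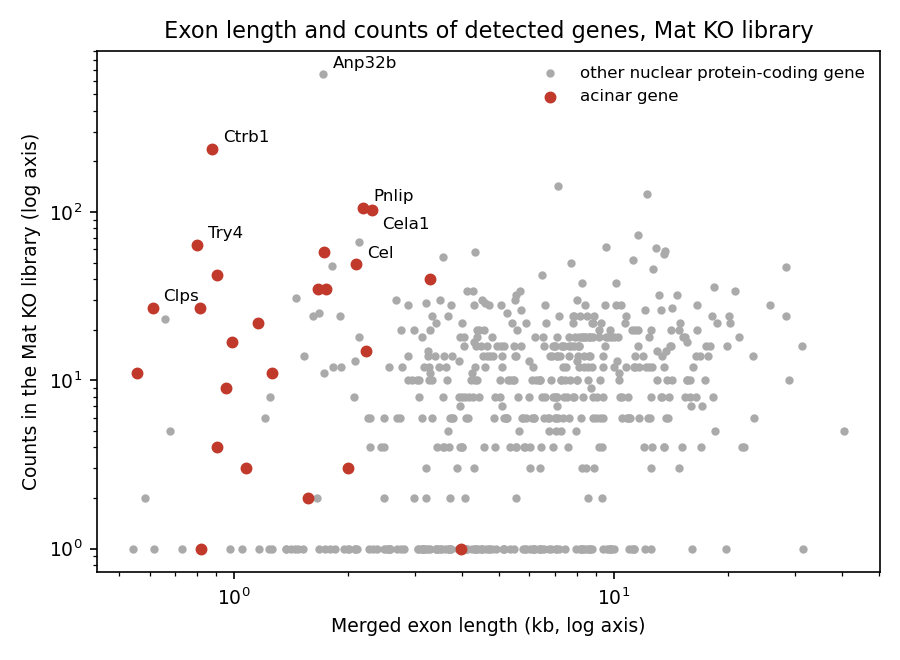
Counts in the Mat KO library (vertical axis, logarithmic) against merged exon length in kb (horizontal axis, logarithmic) for each nuclear protein-coding gene detected there, acinar genes in red. Acinar genes lie at the short end with Ctrb1 at 238 counts, while the other genes have a median length of 6426 bases and a median of 8 counts.

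The WT libraries shared acinar genes and other genes with the Mat KO library to different degrees. Of the 17 acinar genes with at least 10 counts in the Mat KO library, 8 also had a count in WT 2, where 9.29% of 269 other nuclear protein-coding genes with at least 10 counts did. In WT 1 a count was found for 1 of the 17, Cela1, where 50.6% of the 269 other genes had one. The acinar genes were chosen as high in Mat KO and low in WT, so these numbers carry no test. The levels also differed, with a median of 35 counts in the Mat KO library for the 17 and 16 for the 269. The 3 acinar genes with most counts in the Mat KO library, Ctrb1, Pnlip and Cela1, gave 8 of the 16 counts of WT 2. No acinar gene had more than 3 counts in WT 2, so the order of genes within WT 2 cannot be read.

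Of a list of further acinar genes, with 20 of 24 matched, 6 had counts in the Mat KO library. The summed counts were 3, 2 and 78. Of these 2210010C04Rik, a trypsinogen gene also on chromosome 6, gave 0, 2 and 66, and Dmbt1 2, 0 and 6. Islet endocrine genes had 77, 0 and 0 counts, of which Ttr, also a main liver transcript, gave 75, Chgb 1 and Pcsk2 1. The hormone genes Ins1, Ins2, Gcg, Sst and Ppy were at 0 in each library. Duct epithelium genes had 24, 0 and 7 counts, with Spp1 at 19, 0 and 0, Car2 at 5, 0 and 0, Krt7 at 0, 0 and 5 and Tff2 at 0, 0 and 2. Genes of the stomach and intestine were at 0 in all libraries and the salivary gland list had 1 count, the Amy1 count of WT 1. Genes for protein entry into the endoplasmic reticulum and folding there, which any secretory cell uses, had 138, 10 and 40 counts, with Calr at 22, 4 and 28, P4hb at 32, 0 and 0, Hspa5 at 10, 2 and 11 and Pdia3 at 12, 2 and 0. Per 10000 they lay at 66.0 (55.9 to 77.9), 43.5 (23.6 to 79.8) and 27.7 (20.4 to 37.7), an order opposite to that of the enzymes between WT 1 and the Mat KO library.

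**Figure D5:**
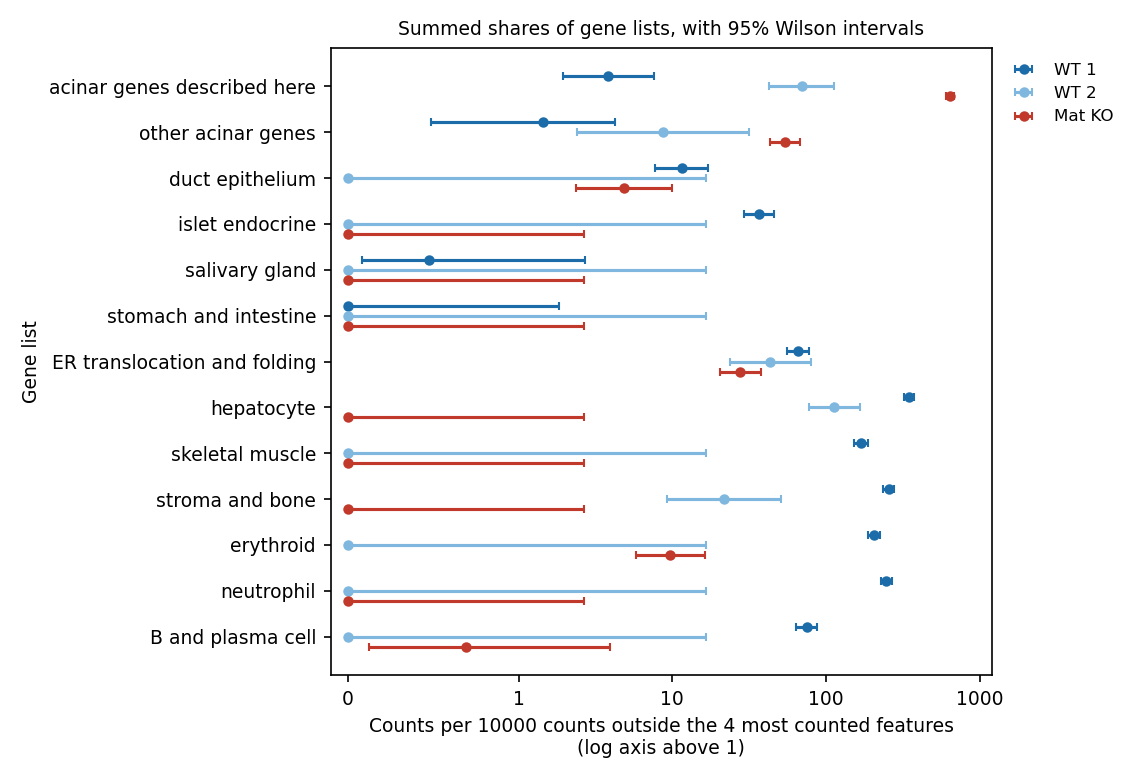
Summed share of each gene list (vertical axis) per 10000 counts outside the 4 most counted features (horizontal axis, logarithmic above 1), with 95% Wilson intervals for counting error, in each library. Acinar genes are highest in the Mat KO library at 640.3, where hepatocyte, muscle, stroma and neutrophil genes are at 0.

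The libraries differed widely in content. The part of this content in the acinar shares was not tested. Gene-assigned counts ranged from 64547 to 239429, and 4349 genes were detected in WT 1, 425 in WT 2 and 642 in Mat KO. Defining marrow genes were at or near 0 in the Mat KO library: the neutrophil list had 515, 0 and 0 counts, the erythroid list 430, 0 and 14, with Bpgm giving all 14, the B and plasma cell list 156, 0 and 1, and stroma and bone 533, 5 and 0. WT 2 also lacked neutrophil, erythroid and B cell counts, so of these libraries WT 1 alone held neutrophil genes. Hepatocyte genes had 722, 26 and 0 counts and skeletal muscle genes 352, 0 and 0. With 1 library of the genotype, a difference by genotype and the content of this library cannot be told apart. In edgeR's quasi-likelihood test over all genes 0 of 437 genes passed a false discovery rate of 0.05 (0%), 0 had an unadjusted p under 0.05, and DESeq2 called 0 with 7 at an unadjusted p under 0.05. Of the acinar genes 15 entered that test, 14 of them at 0 counts in WT 1 and 7 at 0 in both WT libraries, so they passed the filter on low counts through the Mat KO library.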

How the data were processed

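Polysomal RNA of 2 WT libraries and 1 Mat KO library was analysed, grouped by the title and genotype labels. The authors deposited unnormalized read counts for each Ensembl gene. The submitters' processing notes name Trimmomatic, HISAT2 2.1.0, HTSeq 0.11.2 and the build GRCm38. The sources used here do not give the annotation release, strand setting or library selection. The 5 HTSeq summary lines were left out of library sizes. In the order WT 1, WT 2 and Mat KO, 15.1%, 11.8% and 9.99% of recorded reads were assigned to genes, and 33.5%, 74.3% and 66.1% were ambiguous. A further 43.9%, 9.68% and 19.6% fell on no counted feature, and 7.44%, 4.27% and 4.27% had several alignments.

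GENCODE M21 gave symbols and exon lengths for 48435 of 48795 identifiers. The 36 genes, the marker lists and the denominators were chosen with earlier results of these data known. Nuclear protein-coding genes are taken without Lars2 throughout. Named genes are every listed acinar gene, up to 4 genes with the most counts of other lists, and the 10 nuclear protein-coding genes with the most counts in the Mat KO library. The parity, length and WT 2 comparisons, Ins1, Ins2, Gcg, Sst, Ppy and the other amylase copies were chosen after values were seen. For 1 further gene under this rule, values are not reported here. Shares have 95% Wilson intervals (SciPy 1.17.1). Ratios against 1 to 3 counts have exact binomial intervals, and a count of 0 is taken to allow 3 counts, which is 1.44, 13.04 and 2.08 per 10000 counts. Reads have no molecular identifiers, so intervals cover counting error only.

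Genes were tested with edgeR 4.0.16 (TMM, filterByExpr by group, Benjamini-Hochberg adjustment), with DESeq2 1.42.0 beside it. With 1 residual degree of freedom, the fit takes the single Mat KO library to vary as WT does. The edgeR fit was tested on simulated data with larger libraries than these, so that test does not cover the present depth.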

Additional observations from a re-analysis of the deposited data

How the results depend on the processing

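The acinar genes stayed above the mean WT share, and most of them above both WT libraries, under every alternative run. They were chosen as high in Mat KO and low in WT, so this direction follows from the choice and is no test. The runs show how far the size of the ratio moved. The ratio of the summed Mat KO share to the mean WT share, 17.5-fold, was 77.0-fold with all gene-assigned counts as the denominator, 17.0-fold with nuclear protein-coding counts without Lars2, 19.0-fold over genes with at least 10 counts and 15.8-fold without Ctrb1. Leaving out a WT library gave a range of 9.21-fold without WT 1 to 167-fold without WT 2. The number of genes above both WT libraries, 24, ranged from 17 to 25, and 17 came from the restriction to genes with at least 10 counts, which leaves fewer genes. The protease share of the acinar counts, 72.3%, was 75.9% per kb of exon and 62.7% without Ctrb1. The lipase share, 21.5%, was 16.1% per kb and 29.0% without Ctrb1. edgeR called 0 genes with DESeq2-type size factors, total counts, library sizes without the 4 most counted features and no filter, each with 0 at an unadjusted p under 0.05, and DESeq2 called 0 with 7. Leaving out a WT library leaves no residual degrees of freedom, so that test was not run. No paired analysis was possible because the labels number only the WT libraries. In WT 2 a count of 0 allows 13.04 per 10000, so acinar genes with shares under that in the Mat KO library, Rnase1 at 11.8 among them, cannot be set apart from WT 2.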
